A study of Mus musculus with 12 samples.

Results

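Colonic crypts labelled as telomerase-reactivated were set against crypts without telomerase. The comparison uses 4 of the 12 RNA sequencing libraries of a study of telomerase loss in the mouse large intestine, picked by their labels alone. Of these, 2 carry the genotype mTert_reactivated_Generation4 and 2 the genotype mTert_NULL_Generation4, and all 4 come from unsorted crypt epithelial cells of C57BL/6 mice aged 3 months. A further 2 libraries, mTert_HET, of the same tissue, strain and age, were fitted with them so that 6 libraries shared 1 estimate of the spread, and their values are given for reference. The other 6 libraries, from sorted cells, were not used here. In what follows the libraries are called reactivated 1 and 2, null 1 and 2, and heterozygous 1 and 2, after their labels. Nothing in the labels says how Tert was altered, what switched telomerase on, which cells that reached or for how long, and the letters tam in the column names of the reactivated libraries are not explained. Replicates are called biological but tied to no named animal, so p-values here reflect just the scatter among these libraries. That scatter may be technical in the null and heterozygous pairs. The reactivated pair differed in sex-linked genes, as given below, and so is not a repeat of a single animal.

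Telomerase adds repeats to chromosome ends, with the Tert protein as its reverse transcriptase and the Terc RNA as its template. In mice bred without it, ends shorten with each generation, and tissues that renew all the time, such as the lining of the gut, are known to be affected early. Colonic crypts hold stem and dividing cells in their lower part, and among them deep crypt secretory and goblet cells that release antimicrobial proteins and mucus, while absorptive cells mature towards the surface. The title of the study concerns the co-activator YAP1 and inflammation, so genes of those kinds were followed beside genes of crypt cell types, the cell cycle, the circadian clock and metabolism.

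The depth implied by the smallest RPKM steps was 74900000 to 103000000 reads a library. Epithelial genes were high in all 6 libraries (10 markers summing to 2046 RPKM or more). The 15 T and NK cell markers summed to 7.3 and 8.33 RPKM in the null pair, 6.98 in reactivated 1 and 2.47 in reactivated 2, and the B cell and stroma lists to 0.686 to 5.75 RPKM over all 6 libraries. The myeloid list summed to 31.7 to 45.4 RPKM in the 4 generation 4 libraries, most of it from Cd14 and Ly6g, while Csf1r and the macrophage gene Emr1 did not exceed 0.128 RPKM. Both null libraries and reactivated 1 expressed Xist (22.3 to 28.6 RPKM) and almost no Y-linked Ddx3y (0.00574 RPKM or less). Reactivated 2 was the reverse, with Xist at 0.0162 and Ddx3y at 4.75 RPKM, as were both heterozygous libraries. Sex and replicate therefore cannot be told apart within the reactivated pair. Group and sex cannot be told apart between the null and heterozygous pairs either, which bears on every heterozygous reference value below. The reactivated pair was mixed in these genes and the null pair was not. Mitochondrial ribosomal RNA took 12 and 11.9% of summed RPKM in the null pair, 10.8% in reactivated 1 and 16.7% in reactivated 2, and its part in the differences between the libraries was not tested.

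Tert itself (chromosome 13, 73626911 to 73649843, GENCODE M21 for GRCm38) was at 0.00778 and 0.0377 RPKM in null 1 and 2 and at 0.0171 and 0.0311 RPKM in reactivated 1 and 2. Both reactivated values lay within the null range, against 0.459 and 0.251 RPKM in the heterozygous pair. RNA levels thus did not separate the libraries labelled reactivated from null ones, and every direction given here rests on the labels. Terc was at 4.59 and 3.4 RPKM in the null pair and 5.47 and 5.85 RPKM in the reactivated pair, a log2 difference of 0.42 (SE 0.25, limma, adjusted p = 0.833). Dkc1, the pseudouridine synthase that stabilises Terc, was lower in both reactivated libraries (5.86 and 6.06 against 5.48 and 2.9 RPKM) without passing the test (limma, adjusted p = 0.833).

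Few genes separated the 2 groups. The secretory ribonuclease Ang4 rose, the pseudogene Gm9762 rose and the pseudogene Gm7488 fell, and no other of the 11464 tested genes passed (limma on log2(RPKM + 1), Benjamini-Hochberg adjusted p under 0.05). Genes were tested where at least 2 of the 6 libraries reached 1 RPKM. The share called was 0.0174% higher and 0.00872% lower, and 310 genes (2.7%) had an unadjusted p under 0.05. The counts rest on single libraries: without reactivated 1 there were 24 higher and 160 lower, without reactivated 2 there were 2 and 4, without null 1 or 2 there were 2 and 2 or 5 and 8, and without heterozygous 1 or 2 there were 4 and 3 or 5 and 3. As a wider description, both reactivated libraries lay above both null ones for 525 genes (4.58%) and below both for 2918 (25.5%). The median log2 difference of all tested genes was -0.01 in reactivated 1 and -0.27 in reactivated 2. After each library was scaled to the same median the shares were 18.1% above and 16.5% below, and these figures are the background for the counts of gene groups given below.

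Ang4 encodes an angiogenin-type ribonuclease that kills bacteria and is made by secretory cells of the crypt base. It lies on the minus strand of chromosome 14 (51763878 to 51773590). It was at 6.04 and 5.09 RPKM in null 1 and 2 and at 27.7 and 24.8 RPKM in reactivated 1 and 2, so each reactivated library held more than either null one. The mean was 4.71-fold that of the null pair, with a log2 difference of 2.05 (SE 0.20, limma, adjusted p = 0.0181, n = 2 per group). Heterozygous crypts held 190.03 and 195 RPKM, 7.34-fold the reactivated mean. Taken one at a time against the null pair, reactivated 1 differed by 2.13 (limma, adjusted p = 0.06) and reactivated 2 by 1.98 (adjusted p = 0.0418). In bulk crypts, more cells of a type and more RNA per cell cannot be told apart. The call was lost under 5 alternatives, with log2 differences of 2.05 to 2.16, among them no filter on low values (limma, adjusted p = 0.119), quantile normalization (0.056), a term for sex (0.06) and leaving out reactivated 2 (0.0593), in a range over all alternatives from 0.00133 to 0.119. Ang4 has close relatives in the genome, and reads shared among them would make its single value uncertain.

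The 250 bases before the RefSeq start of Ang4 (GRCm38.p6, chr14:51773591-51773840, minus strand) are shown because it is the protein-coding gene that passed. Both strands were searched for 3 motifs: the E-box CACGTG of the clock proteins, the D-box TTATGTAA of the Dbp family and the TATA box TATAAA. None of these exact letters is in this window, so no letter is in capitals. Variants, such as the letters tatatat near the end of this window, were not searched for.
Ang4: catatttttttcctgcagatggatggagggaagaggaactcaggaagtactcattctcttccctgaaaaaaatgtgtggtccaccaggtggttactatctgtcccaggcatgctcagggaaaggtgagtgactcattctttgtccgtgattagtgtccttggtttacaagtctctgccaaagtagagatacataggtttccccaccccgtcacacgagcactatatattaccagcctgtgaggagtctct
Of all 32851 RefSeq start windows of this length, 6.02% held the E-box, 0.819% the D-box and 12.4% the TATA box letters.

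Both pseudogenes that passed are processed copies without introns. Gm9762 (chromosome 3, 78966356 to 78966799, minus strand) was at 1.02 and 0.804 RPKM in the null pair and 8.74 and 9.63 RPKM in the reactivated pair, a log2 difference of 2.41 (SE 0.15, limma, adjusted p = 0.00136). The heterozygous pair held 7.91 and 7.07 RPKM, close to the reactivated level. It lost the call without a filter (log2 difference 2.41, limma, adjusted p = 0.0678) and after quantile normalization (2.43, adjusted p = 0.056), in a range over all alternatives from 3.1e-06 to 0.0678. Gm7488 (chromosome 3, 21049565 to 21050248, plus strand) was at 3.56 and 3.59 RPKM in the null pair and at 0.162 and 0.143 RPKM in the reactivated pair, a log2 difference of -1.99 (SE 0.17, limma, adjusted p = 0.00774). Gm7488 lost it under 6 alternatives, with log2 differences of -1.99 to -1.84, among them quantile normalization (adjusted p = 0.0772), median scaling (0.0784), a term for sex (0.06), leaving out reactivated 2 (0.057) and no filter (0.231), in a range from 1.5e-05 to 0.231. Gm9762 matches 444 of its 444 bases at 100% identity in the transcript of Ube2d2a, a ubiquitin-conjugating enzyme, and Gm7488 matches 684 of 684 at 100% in Nudt21, a subunit of the 3' end cleavage factor. Reads from such copies cannot be told from those of the parent gene, so neither value can be assigned to the pseudogene. Levels of the parents did not follow: Ube2d2a was at 11.4 and 12.04 RPKM in null and 10.5 and 7.04 RPKM in reactivated libraries, and Nudt21 at 3.86 and 5.15 against 5.35 and 3.31 RPKM. With these parents counted, 8 other genes matched Gm9762 and 4 matched Gm7488, and levels of the rest were not examined.

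**Figure D1:**
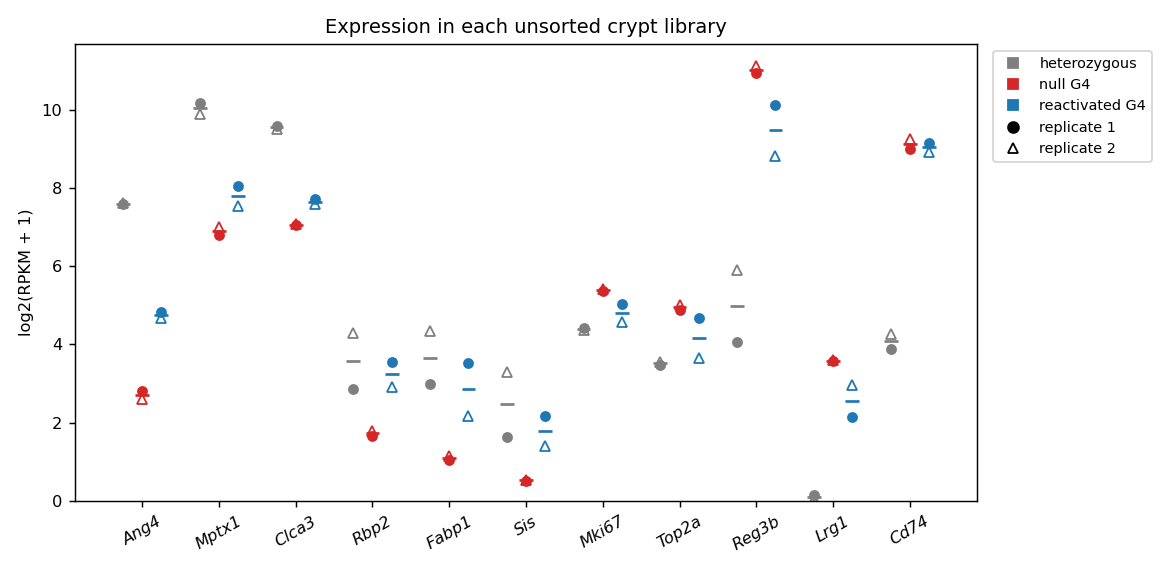
Level of 11 genes in each of the 6 unsorted crypt libraries as log2(RPKM + 1), on a linear axis from 0. Each point is 1 library, filled circles are replicate 1, open triangles replicate 2, and short bars are the mean of the 2 libraries of a group. Ang4 in the reactivated pair (27.7 and 24.8 RPKM) lies between the null pair (6.04 and 5.09 RPKM) and the heterozygous pair (190.03 and 195 RPKM), while Cd74 overlaps between null and reactivated libraries.

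Other genes of deep crypt secretory cells did not pass, and they did not all lie on the side of Ang4. Of 12 tested members of this list (13 listed, Ang4 included), 3 lay above both null libraries in both reactivated ones and 1 lay below. The mucosal pentraxin Mptx1 was at 110.2 and 126 RPKM in the null pair and 265 and 183 in the reactivated pair (log2 difference 0.90, SE 0.28, limma, adjusted p = 0.833). Both reactivated libraries were higher, and heterozygous ones higher still at 1145 and 954 RPKM. The lectin Itln1 overlapped (1.54 and 1.19 against 2.15 and 1.41 RPKM). The phospholipase gene Pla2g2a, annotated as a polymorphic pseudogene, was lower, at 20.3 and 19.7 against 17 and 11.9 RPKM (log2 difference -0.46, limma, adjusted p = 0.833). After median scaling 7 members lay above and 1 below.

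Goblet cell genes likewise gave no call. Of 17 tested, 4 lay above and 1 below, as did 4 and 0 after median scaling. Clca3, a protein secreted with mucus, was at 131 and 133 RPKM in the null pair and 208 and 190.1 in the reactivated pair (log2 difference 0.59, SE 0.24, limma, adjusted p = 0.833), against 770 and 724 in heterozygous crypts. The main mucin Muc2 overlapped, at 2008 and 2040.4 RPKM in the null pair, 2346 in reactivated 1 and 1692 in reactivated 2. In 10 of the 17 genes reactivated 1 lay above and reactivated 2 below the null pair, as in 19.2% of all tested genes. The secretory fate factor Spdef was one of them, at 52.6 and 55.9 RPKM in the null pair, 81.4 in reactivated 1 and 32.5 in reactivated 2.

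At least 2-fold above the null mean in both reactivated libraries (1 log2 unit on the scale used) were 7 genes (0.0611%), and 7 genes lay as far below. The protein-coding ones above were Ang4, Rbp2 and Fabp1. Below, Nov was the single protein-coding gene. Nov, a secreted CCN family protein, was at 11.1 and 13 RPKM in the null pair and 3.67 and 1.43 in the reactivated pair, but the heterozygous pair itself was split (11.2 and 1.15), and the difference of -1.95 did not pass (SE 0.67, limma, adjusted p = 0.833).

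Genes of small intestinal absorption mostly lay above null crypts. Of 16 listed genes 12 passed the filter, of which 9 lay above both null libraries in both reactivated ones and 1 below. Of all tested genes 4.58% lay above and 25.5% below. After median scaling the 12 listed genes gave 9 above and 0 below, against 18.1% and 16.5% of all tested genes. None of the 12 passed singly. Their median difference was 0.98 in reactivated 1 and 0.47 in reactivated 2, against -0.01 and -0.27 over all tested genes. Rbp2, a retinol carrier, was at 2.18 and 2.44 RPKM in the null pair and 10.8 and 6.51 in the reactivated pair (log2 difference 1.51, SE 0.41, limma, adjusted p = 0.833). For Fabp1, a fatty acid carrier, the levels were 1.06 and 1.21 in null and 10.6 and 3.5 RPKM in reactivated libraries (1.76, SE 0.49, adjusted p = 0.833). Both libraries exceeded the null pair, reactivated 1 by more. Sucrase-isomaltase (Sis), which splits sugars at the brush border, stood at 0.438 and 0.463 RPKM in null and 3.5 and 1.67 in reactivated crypts. Apoa1, the main protein of high density lipoprotein, was at 2.94 and 1.99 against 9.49 and 5.25 RPKM. These genes varied within the heterozygous group too, Sis being at 2.1 and 8.9 RPKM there and Apoa1 at 6.85 and 26.4. The aminopeptidase Anpep, outside the list and picked after its values were seen, was at 0.863 and 1.09 in null and 5.41 and 2.65 RPKM in reactivated libraries. The bile acid carrier Fabp6 went the other way (22.3 and 27.7 against 15.7 and 21.7 RPKM).

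**Figure D2:**
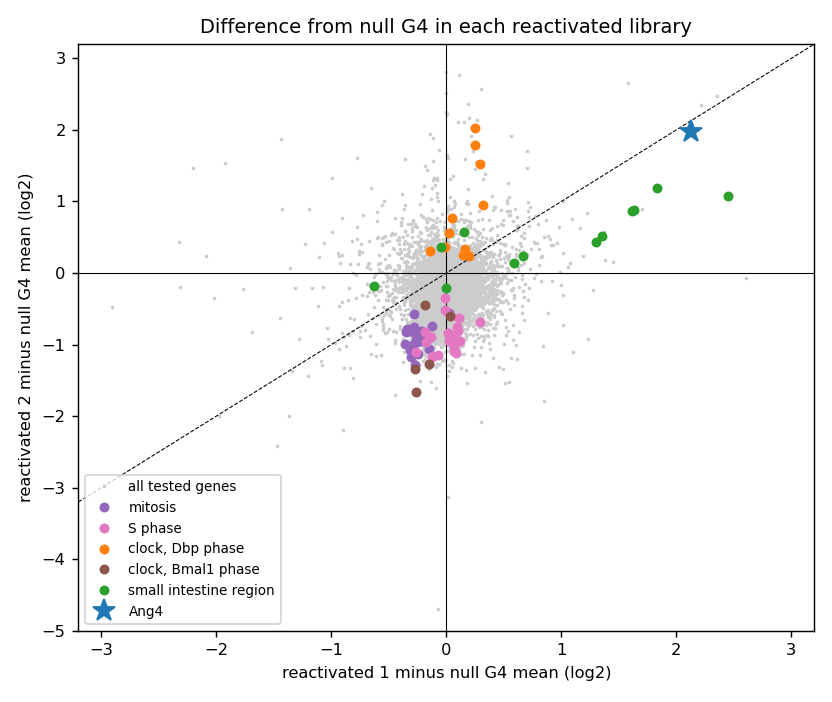
Difference of reactivated 1 (x axis) and reactivated 2 (y axis) from the null G4 mean, in log2(RPKM + 1). Grey points are the tested genes, coloured points 5 gene lists, the star Ang4, and the dashed line marks equal differences. Both axes share the null G4 libraries, so position along the diagonal is not evidence of a shared effect. Ang4 lies near the line (2.13 and 1.98), small intestinal genes mostly lie nearer the x axis and clock genes of the Dbp phase nearer the y axis.

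Absorptive cells of the colon showed no common shift. Of 22 tested genes 1 lay above and 3 below, and 4 and 3 after median scaling. Aqp8, a water channel of surface cells, was at 16.6 and 18.4 RPKM in the null pair, 9.81 in reactivated 1 and 55.5 in reactivated 2, so the 2 libraries lay on opposite sides. With Aqp8, 7 of the 22 genes were split in this sense (3.96% of all genes were), and 3 in the reverse sense. In hormone-producing enteroendocrine cells all 9 tested genes were above the null pair in reactivated 1 (26.8% of all tested genes were), and 6 were below it in reactivated 2 (78.2%). Somatostatin (Sst) was at 2.78 and 2.29 RPKM in null, 5.05 in reactivated 1 and 2.49 in reactivated 2. Of 7 tested tuft cell genes, 7 lay above in reactivated 1 and 2 in reactivated 2 (11.2% of all tested genes did). After median scaling 6 of the 7 tuft cell genes and 5 of the 9 enteroendocrine genes lay above in both.

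Genes of mitosis were lower in both libraries. Of 25 tested, 24 lay below both null libraries in both reactivated ones, and 24 did after either scaling, where the background was 16.5% and 19.4%. None passed. The median difference was -0.27 in reactivated 1 and -0.94 in reactivated 2. Mki67, the Ki-67 antigen of dividing cells, was at 40.1 and 41.7 RPKM in the null pair, 31.9 in reactivated 1 and 22.7 in reactivated 2, with 20.4 and 19.6 in heterozygous crypts. Its log2 difference was -0.59 (SE 0.22, limma, adjusted p = 0.833). Cenpe, a kinetochore motor, was at 7.31 and 7.96 against 5.82 and 4.01 RPKM, and the spindle protein Nusap1 at 6.99 and 8.51 against 5.78 and 3.4 RPKM. Cyclin B1 (Ccnb1) and the kinetochore subunit Ndc80 differed by -0.70 and -0.56. Plk1, the polo-like kinase, was the member that overlapped (30.7 and 32.8 against 32.3 and 21.2 RPKM).

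S phase genes lay further below null crypts in reactivated 2 than in reactivated 1. In reactivated 2, 22 of 22 lay below both null libraries, where 78.2% of all tested genes did, with a median difference of -0.91. In reactivated 1 the median was 0.02, 3 genes lay above and 6 below (32.0% of all genes did), and the count below in both libraries was 6 of 22. Pcna, the sliding clamp of DNA polymerase, was one of these 6, at 27.4 and 30.5 RPKM in null, 23.9 in reactivated 1 and 13 in reactivated 2. The helicase subunit Mcm5 was at 16.5 and 19.1 RPKM in null and at 18.8 in reactivated 1, within the null range, but at 7.61 in reactivated 2. Prim1, a primase subunit, was at 3.88 and 4.04 against 3.4 and 1.55 RPKM. Tested singly against the null pair, some of these genes were called in reactivated 2, such as Rfc4, a clamp loader subunit (-1.17, limma, adjusted p = 0.0418), where 0.209% of genes were called higher and 1.38% lower. Whether the 2 reactivated libraries differed was tested gene by gene, and no gene of either list passed that test (limma, smallest adjusted p 0.0743).

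**Figure D3:**
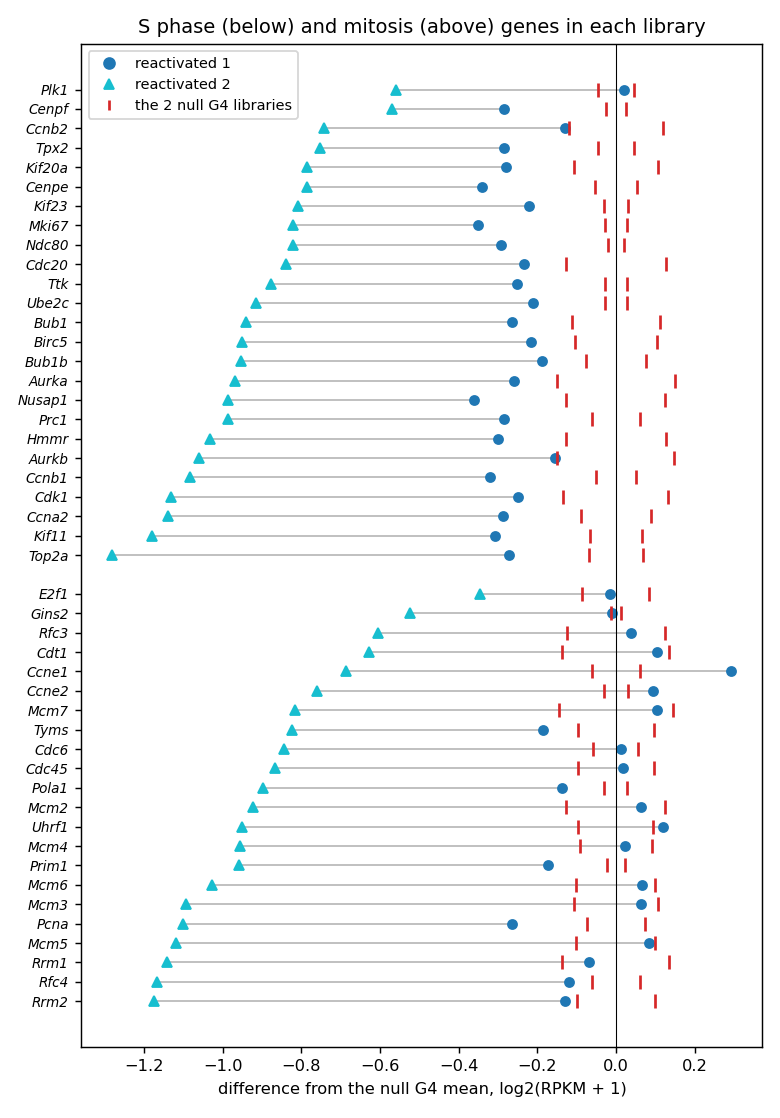
Difference of each reactivated library from the null G4 mean, in log2(RPKM + 1), for 22 S phase genes (lower block) and 25 mitosis genes (upper block). Circles are reactivated 1, triangles reactivated 2 and red ticks the 2 null G4 libraries. Triangles lie left of the ticks for all 47 genes shown, whereas circles lie left of them for 24 mitosis genes and 6 S phase genes.

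Most clock genes lay on 1 side of null crypts in both libraries, though none passed the test of the reactivated pair against the null pair (limma, smallest adjusted p 0.833). The circadian clock is a loop in which Arntl (Bmal1) and Clock drive their own repressors and, at the opposite phase, output factors such as Dbp. Of 11 tested genes of the Dbp phase (13 listed), 9 lay above the null pair in both libraries and 0 below, with medians of 0.16 in reactivated 1 and 0.56 in reactivated 2. Of 5 genes of the Bmal1 phase, 4 lay below in both, with medians of -0.19 and -1.27. Of all tested genes 4.58% lay above in both libraries and 25.5% below. After median scaling the counts of clock genes were 8 above and 4 below, against 18.1% and 16.5% of all tested genes.

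Nr1d1 (Rev-erb alpha), the repressor of Arntl, was at 2.31 and 2.15 RPKM in the null pair, 2.85 in reactivated 1 and 12.2 in reactivated 2, against 8.02 and 8.8 in heterozygous crypts. The gap between the 2 reactivated libraries was 1.78 log2 units and passed (limma, adjusted p = 0.0159, with each lone library assumed to vary like the other groups). Tef, an output factor of the same family as Dbp, was at 0.935 and 1.01 in null, 1.41 in reactivated 1 and 4.65 RPKM in reactivated 2, and its gap of 1.23 also passed (adjusted p = 0.0406). Dbp was at 0.293 and 0.215 in null, 0.486 in reactivated 1 and 3.33 RPKM in reactivated 2, a gap of 1.54 that did not pass (adjusted p = 0.0609). Of the 16 clock genes tested these 2 were called, where 0.131% of all tested genes were called higher in reactivated 2 and 0.0785% lower. Nr1d2 (Rev-erb beta), at 3.79 and 4.31 against 5.28 and 8.79 RPKM, and the period genes Per1 (1.91 and 2.02 against 2.32 and 2.75), Per2 (2.46 and 2.6 against 3.05 and 3.17) and Per3 (0.956 and 0.954 against 1.02 and 2.34) lay above the null pair in both. Cry2 (0.994 and 0.937 against 1.17 and 1.34) and Gm129, known as Ciart or Chrono (0.323 and 0.312 against 0.341 and 0.937), did as well. The deubiquitinase Usp2 and the repressor Bhlhe40 overlapped, being below or within the null range in reactivated 1 and above it in reactivated 2.

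In the opposite phase Arntl was at 10.7 and 11.6 RPKM in the null pair, 9.11 in reactivated 1 and 2.83 in reactivated 2, with 1.49 and 2.5 in heterozygous crypts. Cry1, a repressor that peaks late, was at 3.49 and 4.18 against 3 and 0.9 RPKM, and Nfil3, which opposes Dbp at D-boxes, at 3.78 and 3.92 against 3.37 and 1.02. In all 3, both reactivated libraries were below the null pair and reactivated 2 by far the more. Clock (13.8 and 14.8 against 12.4 and 10.2 RPKM) was lower in both, and Npas2, the paralogue of Clock, overlapped (2.36 and 2.8 against 2.66 and 1.36).

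Start windows of Tef and Per3 are shown as examples of windows of clock genes that hold the letters of the 2 clock motifs, which are in capitals (E-box in Tef, D-box in Per3; RefSeq, GRCm38.p6; 250 bases before the start). Tef has 2 annotated starts, chr15:81802423-81802672 and chr15:81811164-81811413 on the plus strand, and Per3 lies at chr4:151044666-151044915 on the minus strand.
Tef start 1: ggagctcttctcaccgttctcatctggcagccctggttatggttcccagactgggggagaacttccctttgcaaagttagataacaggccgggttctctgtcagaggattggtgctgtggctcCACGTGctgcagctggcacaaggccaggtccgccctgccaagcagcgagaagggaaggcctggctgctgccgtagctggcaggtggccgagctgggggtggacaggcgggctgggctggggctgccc
Tef start 2: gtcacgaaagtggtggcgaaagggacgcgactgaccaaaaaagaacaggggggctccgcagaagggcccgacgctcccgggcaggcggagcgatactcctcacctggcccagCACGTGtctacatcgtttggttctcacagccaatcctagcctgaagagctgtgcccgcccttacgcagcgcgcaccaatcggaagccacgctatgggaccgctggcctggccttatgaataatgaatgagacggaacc
Per3: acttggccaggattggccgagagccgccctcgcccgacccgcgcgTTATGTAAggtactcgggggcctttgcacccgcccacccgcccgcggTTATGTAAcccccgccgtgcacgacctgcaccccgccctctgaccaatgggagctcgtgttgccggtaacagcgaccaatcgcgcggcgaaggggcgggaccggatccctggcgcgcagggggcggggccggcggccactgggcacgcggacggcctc
Both Tef windows hold 1 E-box, and the Per3 window holds 2 D-boxes. The window of Cry1, not printed, holds 1 E-box, and those of Nr1d1, Dbp and Arntl hold the exact letters of neither motif. Matches are a description of the letters and not of binding.

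**Figure D4:**
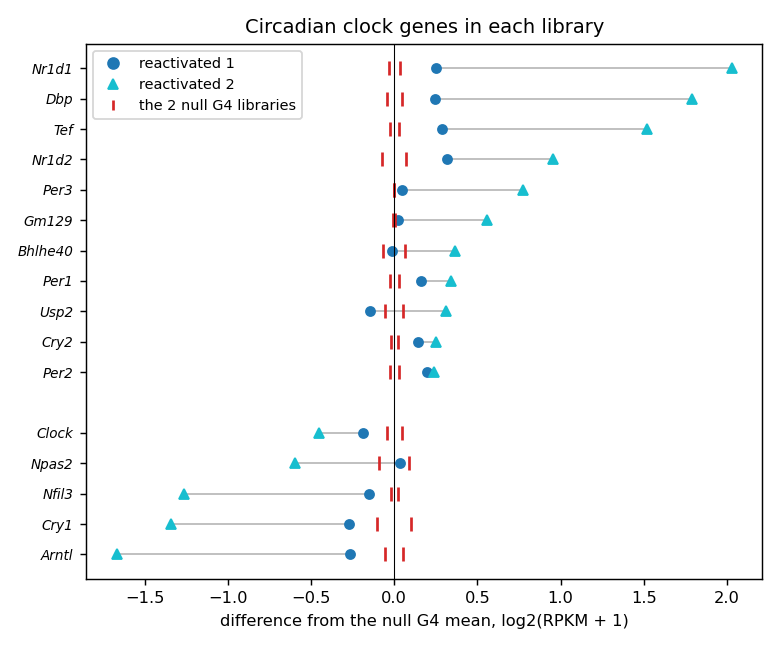
Difference of each reactivated library from the null G4 mean, in log2(RPKM + 1), for 5 clock genes of the Bmal1 phase (lower block) and 11 of the Dbp phase (upper block). Circles are reactivated 1, triangles reactivated 2 and red ticks the null G4 libraries. Reactivated 2 lies far from the ticks for Nr1d1 (2.03), Dbp (1.79), Tef (1.52) and Arntl (-1.67), and reactivated 1 within 0.32 of zero for every gene shown.

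Antigen presentation genes, high in null crypts, were not separated from that level. Of 7 tested MHC class II genes 0 lay on 1 side of the null pair in both libraries, and the same was true of 12 MHC class I genes. After median scaling 2 and 5 of them lay above. Cd74, the class II invariant chain, was at 511 and 604 RPKM in the null pair and 569 and 483 RPKM in the reactivated pair (log2 difference -0.08, SE 0.26, limma, adjusted p = 0.924), against 13.7 and 18.4 in heterozygous crypts. The class II transactivator Ciita was at 7.23 and 7.53 against 8.34 and 6.61 RPKM. Of 18 interferon gamma response genes 1 lay below in both and 13 were split, above the null pair in reactivated 1 and below it in reactivated 2, a split that 19.2% of all tested genes showed. After median scaling 5 lay above and 1 below in both. Ido1, which degrades tryptophan, was at 17.7 and 18.6 RPKM in null, 22.6 in reactivated 1 and 3.53 in reactivated 2. The summed T and NK cell markers, given above, were also lowest in reactivated 2 (2.47 RPKM), and their part in this was not tested.

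Genes induced by type I interferon lay somewhat above null crypts. Of 17 tested 9 lay above in both libraries and 0 below, where 4.58% and 25.5% of all tested genes did. After median scaling 13 lay above, against 18.1% of all tested genes. None passed. Isg15, a ubiquitin-like modifier, was at 6.17 and 6.52 RPKM in null and 7.56 and 9.4 in reactivated libraries (log2 difference 0.36, SE 0.25, limma, adjusted p = 0.833). Mx1, an antiviral GTPase, was at 1.03 and 0.753 against 1.87 and 1.27 RPKM, and Oas2, which senses double-stranded RNA, at 1.31 and 1.44 against 2.27 and 1.71.

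Several epithelial defence genes that were high in null crypts were lower in both reactivated libraries, without passing. Of 11 tested 5 lay below and 0 above, where 25.5% and 4.58% of all tested genes did. After median scaling the counts were again 5 and 0, against 16.5% and 18.1% of all tested genes. After quantile normalization they were 4 and 0, against 19.4% and 15.6%. The bactericidal lectin Reg3b was at 1941 and 2228 RPKM in the null pair and 1113 and 452 in the reactivated pair (log2 difference -1.55, SE 0.60, limma, adjusted p = 0.833), with 15.7 and 58.5 in heterozygous crypts. Its neighbour Reg3g, with which it shares similar sequence, was at 155 and 174 against 88.2 and 64.6 RPKM. Nos2, which makes nitric oxide, was at 9.6 and 10 RPKM in null and 7.36 and 7.5 in reactivated libraries, and Duoxa2, the maturation factor of the oxidase Duox2, at 13.7 and 13.4 against 11 and 8.05. Saa1, an acute phase protein, was split (117 and 124 against 57.1 and 160.3 RPKM). Outside the list and picked after its values were seen, the secreted glycoprotein Lrg1 was at 11 and 11.1 RPKM in null and 3.42 and 6.75 in reactivated crypts, with 0.109 and 0.0418 in heterozygous ones. Its difference of -1.04 did not pass (SE 0.24, limma, adjusted p = 0.833), although reactivated 1 alone differed from the null pair by -1.45 (adjusted p = 0.0275, where 0.0349% of genes were called lower). Complement C3 (5.72 and 6.38 against 4.18 and 4.33 RPKM) and the tight junction protein Cldn8 (30.5 and 34.9 against 22.9 and 21.2), picked in the same way, were also lower in both.

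YAP1 and its pathway showed no common direction. Yap1 was at 4.88 and 5.69 RPKM in null and 5.41 and 4.06 in reactivated libraries, which overlapped (log2 difference -0.14, SE 0.17, limma, adjusted p = 0.833). Of 14 tested Hippo genes 1 lay above and 3 below, and 3 above and 2 below after median scaling. Only 6 of 18 listed YAP1 targets passed the filter, with 1 above and 2 below, and 2 and 2 after median scaling. Ly6a, a surface protein of regenerating crypts with close relatives, was at 171 and 194 against 156 and 141 RPKM, and the annexin Anxa1 at 27.1 and 33.5 against 21.9 and 21 RPKM. Edn1 lay above in both (0.459 and 0.436 against 0.512 and 1.24 RPKM), and Il1rn was split (5.9 and 7 against 4.65 and 7.6 RPKM).

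Of 18 tested inflammasome genes 0 lay above and 6 below, where 4.58% and 25.5% of all tested genes did. Another 6 were below the null pair in reactivated 1 but above it in reactivated 2, as were 3.96% of all tested genes. After median scaling 2 inflammasome genes lay above and 3 below in both, against 18.1% and 16.5% of all tested genes. Il18, the cytokine that caspase 1 releases, was at 19 and 24.5 RPKM in null, 15.8 in reactivated 1 and 26.5 in reactivated 2, on either side of the null pair. Casp1 overlapped (49.4 and 58.9 against 52 and 44.1 RPKM). Il18bp, which neutralises Il18, was lower in both (8.53 and 8.59 against 7.47 and 4.79 RPKM, log2 difference -0.45, SE 0.19, limma, adjusted p = 0.833).

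Targets of p53, a known responder to short telomeres, gave 5 above and 2 below of 23 tested, and 14 and 1 after median scaling. Of all tested genes 4.58% lay above and 25.5% below, and 18.1% and 16.5% after median scaling. Phlda3, an inhibitor of Akt signalling, was at 1.43 and 1.32 RPKM in null and 3.11 and 2.18 in reactivated libraries (log2 difference 0.61, SE 0.17, limma, adjusted p = 0.833). Gdf15, a stress cytokine (1.24 and 0.958 against 2.33 and 1.58 RPKM), and Bbc3 (Puma), which promotes cell death (1.01 and 1.1 against 1.55 and 1.72), were also above in both. Fas went the other way and was below in both (2.29 and 2.15 against 1.65 and 1.53 RPKM, log2 difference -0.32). Trp53 (4.84 and 5.69 against 5.36 and 4.52 RPKM) overlapped, and the cell cycle inhibitor Cdkn1a was split (14.7 and 15 against 12.3 and 23.7). Genes of the DNA damage response lay below in 11 of 21, and genes of telomere end protection in 5 of 11 tested of 14 listed, with 0 above in both lists. After median scaling these were 9 below and 2 above, and 4 below and 3 above.

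Of stem cell genes 3 lay above and 3 below of 15 tested, and 7 above and 4 below after median scaling. Lgr5, the stem cell receptor, was under the filter at 0.591 and 0.537 RPKM in null and 0.602 and 0.453 in reactivated crypts. Smoc2, a matrix protein of the crypt base, was at 11.9 and 13.4 against 10.7 and 6.4 RPKM.

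In metabolism, cholesterol synthesis stood out by count. Of 22 tested genes 17 lay below both null libraries in both reactivated ones, where 25.5% of all tested genes did. After median and quantile scaling 17 did as well, against 16.5% and 19.4% of all tested genes, yet none passed. The medians were -0.19 in reactivated 1 and -0.50 in reactivated 2. Acat2, an acetyl-CoA acetyltransferase at the start of the pathway, was at 11.4 and 13 RPKM in null and 9.64 and 7.27 in reactivated crypts (log2 difference -0.49, SE 0.18, limma, adjusted p = 0.833). The isomerase Idi1 (7.22 and 8.43 against 6.49 and 4.61 RPKM) and lanosterol synthase Lss (6.57 and 7 against 5.66 and 4.32) were lower as well. Nuclear oxidative phosphorylation genes lay below in 7 of 28 (25.5% of all genes did), PGC-1 and sirtuin genes in 5 of 14 with 1 above, and fatty acid oxidation genes were above in 2 of 20. After median scaling these 3 lists gave 0 above and 8 below, 5 above and 2 below, and 8 above and 0 below. Of 13 mitochondrially encoded genes 0 lay on 1 side in both libraries, as 11 were below the null pair in reactivated 1 (32.0% of all tested genes were) and 10 above it in reactivated 2 (11.2%).

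**Figure D5:**
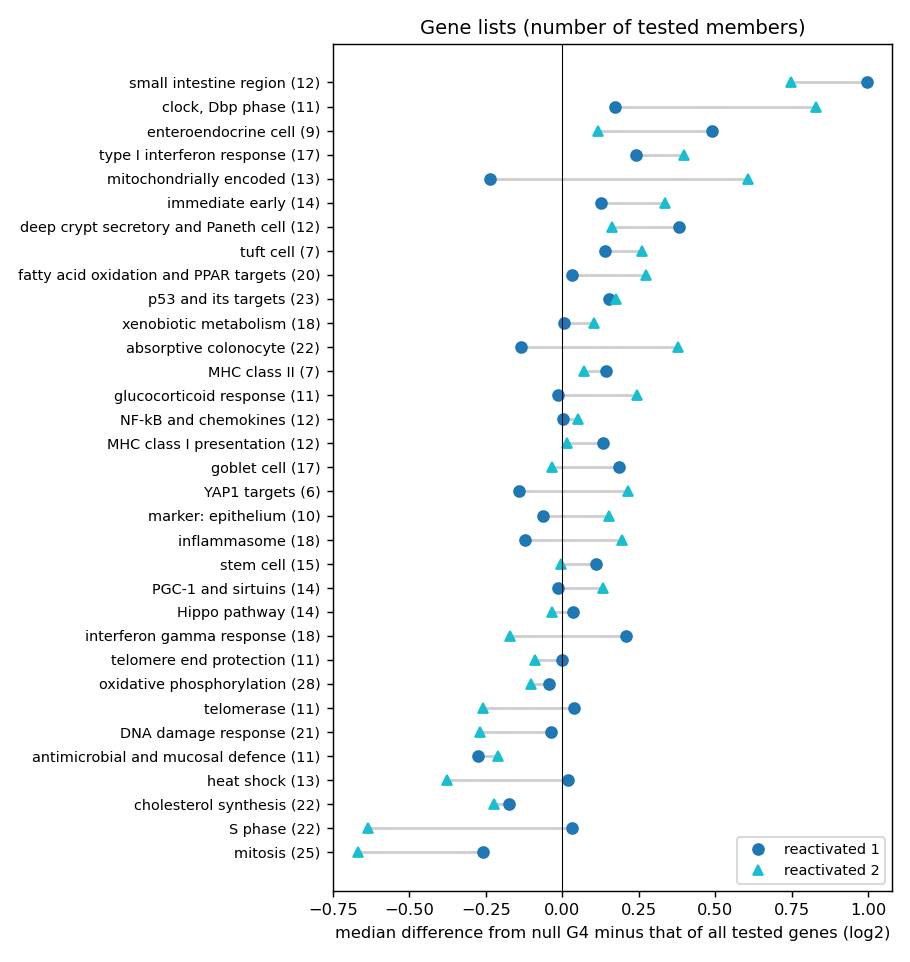
Median difference from the null G4 mean for each gene list with at least 6 tested members, minus the median of all tested genes, in log2 units. Circles are reactivated 1 and triangles reactivated 2, and the number of tested members is in brackets. Mitosis (-0.26 and -0.67) and the small intestine list (1.00 and 0.75) lie on 1 side of zero in both libraries, and S phase (0.03 and -0.64) does not.

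For the remaining lists the counts changed with median scaling, except for telomerase components. Of 12 NF-kB and chemokine genes 0 lay above and 4 below, but 3 above and 1 below after median scaling. Immediate early genes gave 3 above and 1 below of 14 tested, and 9 and 1 after median scaling. Xenobiotic metabolism gave 3 above and 4 below of 18, and 6 and 1 after median scaling. Telomerase components gave 1 above and 2 below of 11, glucocorticoid response genes 0 and 1 of 11, heat shock genes 0 and 1 of 13 and oestrogen response genes 0 and 1 of 3. After median scaling these 4 lists gave 1 and 2, 2 and 0, 1 and 2, and 1 and 1. No member of any list passed the test apart from Ang4.

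Set against each other, the reactivated libraries differed in 24 genes, 15 higher (0.131%) and 9 lower (0.0785%) in reactivated 2. Of these genes, the Y-linked Kdm5d, Ddx3y, Uty and Eif2s3y were higher in reactivated 2 and the X-linked Xist was lower. Among the autosomal protein-coding ones beside the clock genes were Cyp2d9, a cytochrome P450 (1.32 and 1.54 RPKM in null, 0.67 in reactivated 1 and 3.9 in reactivated 2), the oxygen-sensing hydroxylase Egln3 (5.21 and 5.3, then 3.86 and 11.05), the ectonucleotidase Nt5e (3.95 and 4.22, then 2.35 and 8.17) and the calcium channel Trpv6 (3.13 and 3.45, then 1.82 and 6.1). Those lower in reactivated 2 included Akr1c21, an aldo-keto reductase (4.22 and 4.5 in null, then 8.64 and 0.556), the homeobox gene Hoxb7 (2.57 and 2.7, then 4.2 and 0.989), the phosphatase Ptpro (2.6 and 2.65, then 4.19 and 1.16) and the metallothionein Mt3 (4.78 and 4.94, then 6.86 and 2.45). All 8 of these lay on opposite sides of the null pair in the 2 libraries. Of all tested genes 19.2% did with reactivated 1 above, and 3.96% with reactivated 2 above. These 8 were picked for the gap between the 2 libraries, so their split is in part set by that choice. The remaining 9 were pseudogenes, such as Tpd52-ps (7.98 and 7.96, then 0.194 and 5.48 RPKM) and Trmt112-ps2 (3.83 and 4.3, then 0.0169 and 3.42), which are 97.5% and 100% identical to Tpd52 and Trmt112. The count rests on the null and heterozygous pairs: it was 0 without null 1 or null 2, and 2712 and 2700 without heterozygous 1 and 2.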

How the data were processed

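RNA of large intestinal crypt epithelium was sequenced after TruSeq RNA library preparation, per the labels' protocols. The authors deposited 1 table of RPKM values (reads per kilobase of gene, scaled to library size) for 28793 genes. STAR 2.3.0e and mm10 appear in the submitters' processing notes without a role. Annotation, counter and strandedness: not given in the sources used here. Of 27658 genes with values in the unsorted libraries, 11464 reached 1 RPKM in at least 2 of the 6 and were tested. Log2(RPKM + 1) values of 6 libraries were fitted with limma 3.58.1 in R 4.3.3 (empirical Bayes with a mean trend, Benjamini-Hochberg adjustment over all tested genes). Fold changes on this scale understate those of low genes. A second fit gave each reactivated library its own term, and a lone library is then assumed to vary like the pairs of the other groups. An exact permutation test of 2 against 2 libraries cannot go below 0.333. The script was tested on simulated data. Implied depth was 74900000 (null 1), 100000000 (null 2), 102000000 (reactivated 1) and 103000000 (reactivated 2) reads.

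The members and lists were chosen with earlier results of these data known. Named genes are a fixed set (Tert, Terc, Ang4, Mki67, Yap1, Il18, Casp1, Cdkn1a, Trp53, Lgr5, Muc2, Cd74), the genes of largest difference among those that passed in either fit, up to 4 genes of smallest unadjusted p in each of the 40 lists and all listed clock genes, leaving out predicted genes. Gm9762, Gm7488, their parent genes, Nov, Anpep, Lrg1, C3, Cldn8 and other list members given as examples were added after their values were seen. "Above" and "below" mean that both reactivated libraries lay on 1 side of both null libraries. Gene coordinates are from GENCODE M21, which held 98.1% of the identifiers. Alternatives tried were other pseudocounts, filters, scalings, fits, a replicate block, a term for sex and leaving out each library. One list member is not reported here.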

Additional observations from a re-analysis of the deposited data

How the results depend on the processing

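The main counts were 2 genes higher, 1 lower and 24 that differed between the reactivated libraries. Without a filter on low values they were 0, 0 and 63, with 5 RPKM in 2 libraries the lower count was 0 and the last 129, and after quantile normalization they were 0, 0 and 15. Median scaling left 0 lower. Fitting 4 libraries gave 5, 3 and 2679, fitting without a mean trend 11 for the last, and testing protein-coding genes alone 1, 0 and 523. A term for sex, which makes reactivated 1 against null G4 of the comparison, gave 4 lower. Leaving out 1 library at a time gave 2 to 24 higher, 2 to 160 lower and 0 to 2712 between the reactivated libraries. The replicate block gave 4 higher and 5 lower. The labels give the numbers no shared meaning (correlation of deviations of reactivated 1 with null 1, -0.12), and the crossed replicate block gave 1 and 0, without Ang4 and Gm7488. The settings for protein-coding genes and the crossed block were chosen after seeing the data. The cause of these shifts was not tested.

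Among 1537 refits of 98 named genes, 1369 kept direction and side of the threshold, 94 lost a call, 24 gained one and 50, in 19 genes, changed sign, none of them called in the reported comparison. Leaving out 1 library at a time, their log2 differences ranged from -0.56 to 0.022 for Plk1, -1.12 to 0.083 for Mcm5, -0.60 to 0.032 for Npas2, -0.011 to 0.36 for Bhlhe40, -0.14 to 0.31 for Usp2, -0.20 to 0.036 for Cd74, -0.31 to 0.030 for Yap1, -0.43 to 0.28 for Il18, -0.18 to 0.027 for Trp53, -0.26 to 0.64 for Cdkn1a, -0.26 to 0.21 for Muc2, -0.72 to 0.58 for Spdef, -0.77 to 1.61 for Aqp8, -0.014 to 0.78 for Sst, -0.14 to 0.16 for Ciita, -2.08 to 0.30 for Ido1, -1.06 to 0.41 for Saa1 and -0.34 to 0.22 for Nudt21. A term for sex gave the values found without reactivated 2: 0.022 for Plk1, 0.083 for Mcm5, 0.032 for Npas2, -0.011 for Bhlhe40, -0.14 for Usp2, 0.034 for Cd74, 0.030 for Yap1, 0.027 for Trp53, -0.26 for Cdkn1a, 0.21 for Muc2, 0.58 for Spdef, -0.77 for Aqp8, 0.30 for Ido1 and 0.22 for Nudt21. After median scaling the differences were 0.065 for Cd74, 0.0077 for Yap1, 0.076 for Il18, 0.073 for Trp53, 0.13 for Muc2, 0.076 for Spdef and 0.086 for Nudt21. Quantile normalization gave 0.0096 for Yap1, 0.087 for Il18, 0.011 for Casp1, 0.073 for Trp53, 0.087 for Spdef and 0.071 for Nudt21. With 2 libraries a group, small differences were not detectable.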
